A study of Mus musculus with 12 samples.

Results

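A set of 10 mouse genes tied to pluripotency was followed through 12 RNA sequencing libraries of cultured mouse neural cells. They were the core factors Pou5f1 (Oct4) and Nanog, the stem cell marker Zfp42 (Rex1), the ground-state factors Klf2, Klf4 and Tfcp2l1, the growth regulators Myc and Mycn, and the RNA-binding proteins Lin28a and Lin28b. They were picked by gene name, with earlier results of these data known, and all 10 had a line in every table, among 53932 gene identifiers. The question put to them was whether MIM, a serum-free medium with added metabolites, brings any of them above background in astrocytes.

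The 4 groups held 3 libraries each, all from total RNA of C57BL/6 cells in culture. MIM-Astrocytes were astrocytes taken out of serum medium and kept in MIM, which holds FGF2 at 20 ng/mL and up to 6 metabolites (methionine, threonine, glycine, cysteine, putrescine and S-adenosylmethionine). The labels give neither the combination used for these libraries nor the day, up to day 5, on which they were taken. Glioblastoma was a culture of tumour cells whose labels read cerebella and E18.5, and how it was made is not stated. NSC were neural stem cells of the embryonic cortex (E14.5), kept as floating neurospheres in 20 ng/mL each of EGF and FGF2. Astrocytes were kept in medium with 10% serum, carried the labels cortex and E14.5, and came either from sorted postnatal cortex or from differentiated neurospheres, which the labels do not resolve. Whether the 3 libraries of a group stem from separate cultures is not said, so every p-value measures only the spread between these libraries, which may be technical.

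In embryonic stem cells, Pou5f1, Sox2 and Nanog bind many of the same enhancers and keep one another expressed, while Klf2, Klf4, Tfcp2l1 and Esrrb hold the cells in the naive state under LIF and Wnt signals. Pou5f1, Sox2, Klf4 and Myc are the classical set with which somatic cells are reprogrammed. Neural stem cells and astrocytes express Sox2 but not Pou5f1 or Nanog. Lin28a and Lin28b block the maturation of let-7, a family of small RNAs that dampens Hmga2, Myc and the Lin28 genes themselves, and both are silenced as neural progenitors mature.

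Levels are given in FPKM, which scales fragment numbers for transcript length and depth, so that levels can be compared between genes. Summed over all genes they came to 665000 to 795000 FPKM in MIM-Astrocytes, 812000 to 979000 in Glioblastoma, 734000 to 812000 in NSC and 515000 to 624000 in Astrocytes, so that a common total is an alternative scaling. Protein-coding genes made up 47.5% to 51.7% of the sum in MIM-Astrocytes, 42.6% to 48.1% in Glioblastoma and 39.8% to 45.9% in NSC. Their share was 56.3% to 63.3% in Astrocytes, so the make-up of the total differed between groups. The deposited intervals spanned 26.2% to 34.2% to each side of genes near 1 FPKM and 8.59% to 10.6% near 10 FPKM. Astrocyte markers were high in both astrocyte groups, with a summed level of 1180 to 1420 FPKM in MIM-Astrocytes and 1340 to 1530 FPKM in Astrocytes, and all 7 listed genes above 1 FPKM in each. The sum hides opposite moves, as 3 of the 7 were higher in MIM-Astrocytes, 2 lower and 2 not called. Of all genes tested, 34.8% were higher in MIM-Astrocytes than in Astrocytes and 26.6% lower. Gfap, the astrocyte filament protein, averaged 7.35 ± 0.207 FPKM in MIM-Astrocytes and 258 ± 16.1 FPKM in Astrocytes, and the water channel Aqp4 35.5 ± 1.2 FPKM in MIM-Astrocytes and 397 ± 27.7 FPKM in Astrocytes (SD, n = 3 each). The glutamate transporter Slc1a3, which makes up most of the sum in MIM-Astrocytes, averaged 860 ± 137 FPKM there and 396 ± 32.4 FPKM in Astrocytes. All 7 neural stem and progenitor markers reached 1 FPKM in MIM-Astrocytes, Glioblastoma and NSC, against 5 of 7 in Astrocytes.

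Pou5f1 and Zfp42 were not detectable above zero in any group, and Nanog and Klf2 were lower in MIM-Astrocytes than in Astrocytes. Pou5f1, a POU-domain factor, read 0.142, 0.0895 and 0.0598 FPKM in MIM-Astrocytes. It read 0.0758, 0.081 and 0.0324 FPKM in Glioblastoma and 0.0829, 0.0804 and 0.132 FPKM in NSC, against 0.0605, 0.113 and 0.112 FPKM in Astrocytes. All 4 groups overlapped, and the interval of Pou5f1 reached 0 in each of the 12 libraries. Its mean was 0.0971 ± 0.0415 FPKM in MIM-Astrocytes and 0.0949 ± 0.0298 FPKM in Astrocytes (SD, n = 3 each), and the exact permutation test, two-sided, gave p = 1. At this depth a change in Pou5f1 was not detectable.

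Pou5f1 lies on chromosome 17 (35506018 to 35510772, plus strand, GRCm38), and an antisense gene, RP23-38P5.15, overlaps it on the other strand at mean levels from 0.000305 to 0.138 FPKM over the 4 groups. Whether the libraries keep strand is not stated, so signal of the pair cannot be told apart. Its neighbour Tcf19, named here after its values were seen, lies within 2000 bases and stood at 23.3 FPKM in MIM-Astrocytes and 1.67 FPKM in Astrocytes.

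Zfp42 (chromosome 8, 43295063 to 43306980, minus strand), a zinc finger gene whose loss marks exit from the naive state, was listed at 0 in 11 libraries and at 0.00591 FPKM in NSC replicate 2. No fold can be given for it.

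Nanog, the homeodomain factor that sustains self-renewal without LIF, read 0.136, 0.147 and 0.0928 FPKM in MIM-Astrocytes. It read 0.0733, 0.0699 and 0.084 FPKM in Glioblastoma and 0.132, 0.109 and 0.168 FPKM in NSC, against 0.451, 0.45 and 0.327 FPKM in Astrocytes. Every library of Astrocytes was above every other library, and MIM-Astrocytes overlapped NSC. The mean of Nanog was 0.125 ± 0.0286 FPKM in MIM-Astrocytes and 0.409 ± 0.0712 FPKM in Astrocytes (SD, n = 3 each), 3.27-fold lower with MIM. The two-sided exact permutation test gave p = 0.1, the smallest that 3 against 3 libraries allow. Nanog is under the level of 1 FPKM that a gene had to reach in 3 libraries to be tested across all genes, and with no such filter limma called it lower in MIM-Astrocytes than in Astrocytes (difference of log2(FPKM + 1) -0.32, adjusted p = 6.679e-05). Its interval excluded 0 in all 12 libraries, and the 2 pseudogenes Nanog-ps1 and Nanog-ps2 were listed at 0 throughout. The files do not show which bases of the locus carried the reads.

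The window from 250 bases before the annotated start of Nanog to 50 bases from it on is shown for the octamer-like motif TTTGCAT in capitals, the kind of site that POU factors read. It is given 5′ to 3′ from RefSeq (GRCm38.p6, chr6:122707239-122707538, plus strand).
Nanog: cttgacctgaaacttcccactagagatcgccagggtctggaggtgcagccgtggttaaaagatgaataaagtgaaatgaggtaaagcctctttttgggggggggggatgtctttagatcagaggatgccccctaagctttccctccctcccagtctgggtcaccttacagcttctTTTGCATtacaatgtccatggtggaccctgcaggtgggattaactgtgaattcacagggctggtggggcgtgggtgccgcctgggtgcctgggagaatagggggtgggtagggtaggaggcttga
The motif begins 75 bases before the start, and 4.63% of 32851 promoters of that length hold it on either strand. Nanog spans 122707489 to 122714633 there. All motifs were chosen after the sequences had been read, and a match is a description only.

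Klf2 (chromosome 8, 72319033 to 72321656, plus strand), a Krüppel-like zinc finger factor of naive stem cells and of endothelium under flow, read 0.0897, 0.189 and 0.194 FPKM in MIM-Astrocytes. It read 0.826, 0.495 and 0.694 FPKM in Glioblastoma and 0.23, 0.277 and 0.258 FPKM in NSC, against 0.353, 0.464 and 0.42 FPKM in Astrocytes. The order was Glioblastoma, Astrocytes, NSC and MIM-Astrocytes, with no overlap between any pair of neighbours. Klf2 averaged 0.158 ± 0.0588 FPKM in MIM-Astrocytes and 0.412 ± 0.0555 FPKM in Astrocytes (SD, n = 3 each), 2.62-fold lower after MIM, and the two-sided exact permutation test gave p = 0.1, its smallest value. With no filter, limma called Klf2 lower in MIM-Astrocytes than in Astrocytes (log2 -0.29, adjusted p = 0.009301) and higher in Glioblastoma than in Astrocytes (log2 0.24, adjusted p = 0.01659). The same fit called neither NSC against Astrocytes (log2 -0.17, adjusted p = 0.08021) nor MIM-Astrocytes against NSC (log2 -0.12, adjusted p = 0.2797). Endothelial markers summed to 0.286 to 0.323 FPKM in MIM-Astrocytes, 0.539 to 0.618 FPKM in Glioblastoma, 0.293 to 0.458 FPKM in NSC and 1.7 to 1.92 FPKM in Astrocytes. Only 1 of 5 genes was above 1 FPKM in Astrocytes and none elsewhere. That gene, Kdr, made up most of the sum in Astrocytes, at a mean of 1.76 FPKM, against 0.189 FPKM in MIM-Astrocytes and 0.207 FPKM in Glioblastoma. Pecam1 ran otherwise, at 0.0293 FPKM in Astrocytes, 0.0559 FPKM in MIM-Astrocytes and 0.307 FPKM in Glioblastoma. Cdh5 was at 0 in all 4 groups and Cldn5 in NSC. Their part in the Klf2 level was not tested.

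**Figure D1:**
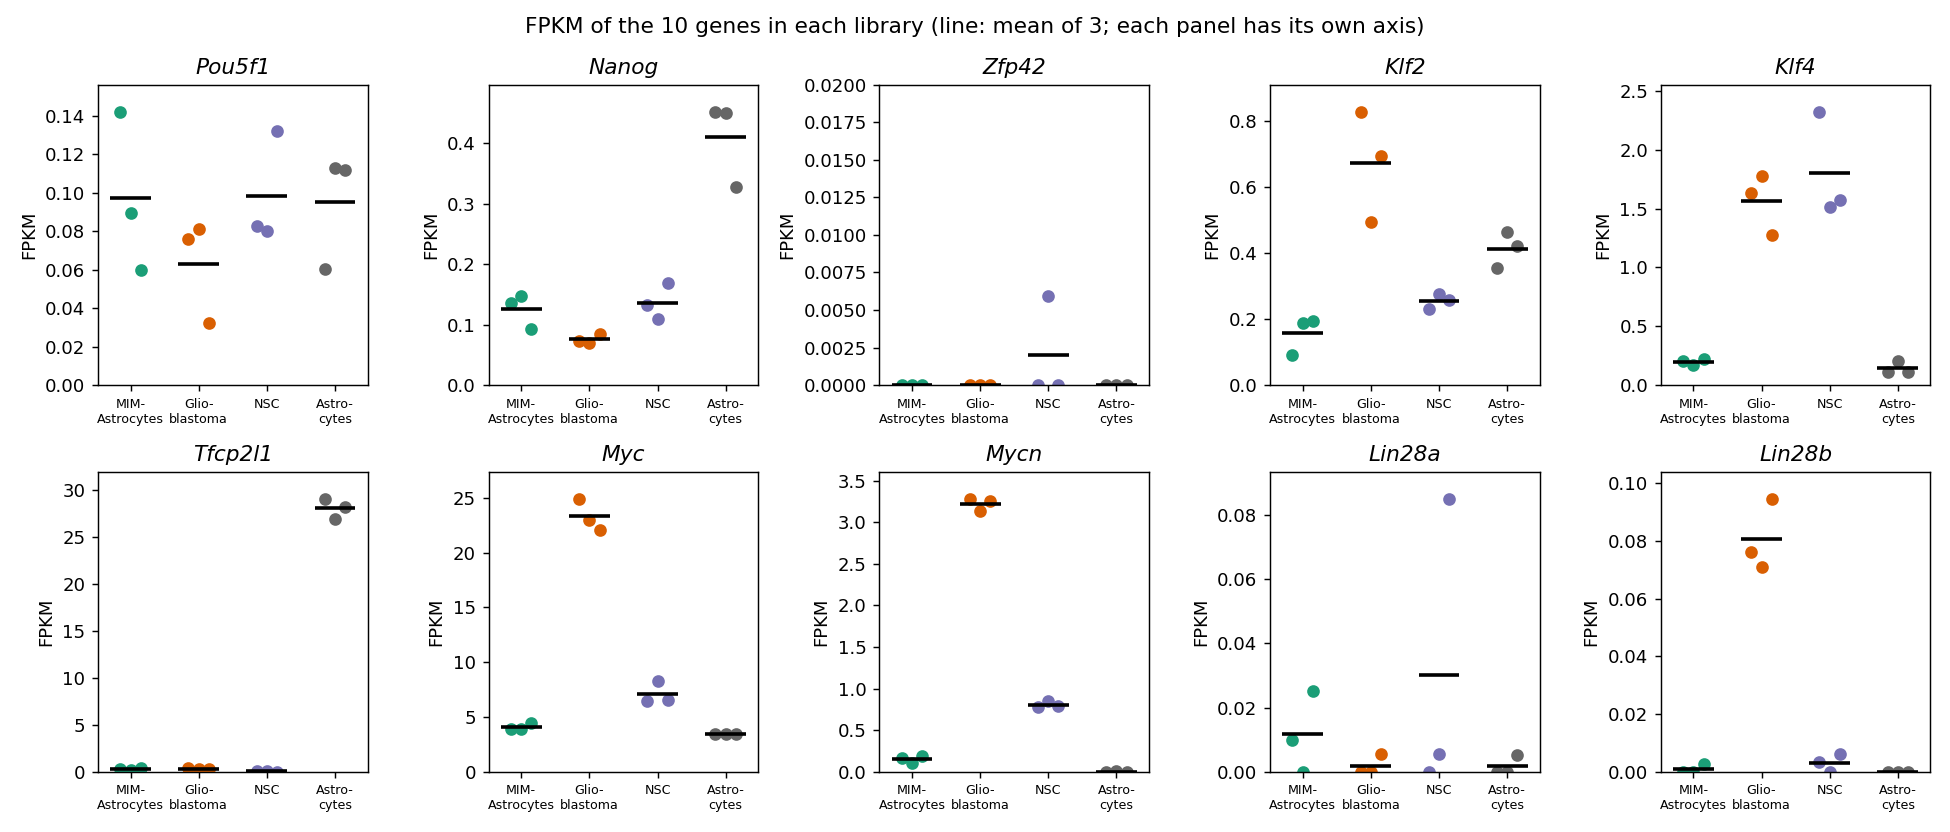
FPKM (vertical axes, one scale per panel) of each of the 10 genes in the 3 libraries of MIM-Astrocytes, Glioblastoma, NSC and Astrocytes. Points are libraries and lines are means of 3. Tfcp2l1 stands at 26.9 to 29.0 FPKM in Astrocytes and under 0.5 elsewhere, while Myc and Mycn are highest in Glioblastoma.

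Of the 10 genes 4, Klf4, Myc, Mycn and Tfcp2l1, reached 1 FPKM in 3 libraries and were tested beside 16982 genes with limma on log2(FPKM + 1), with Benjamini-Hochberg adjustment over all of them. Klf4 passed through 6 libraries of Glioblastoma and NSC, Mycn through the 3 of Glioblastoma and Tfcp2l1 through the 3 of Astrocytes, so those 3 genes had to differ between some groups and their calls there are no sign of a wider pattern. The threshold for a call was an adjusted p under 0.05. In MIM-Astrocytes against Astrocytes 1 of the 4 was higher, Mycn, and 1 lower, Tfcp2l1, where 61.4% of all genes tested were called, 34.8% higher and 26.6% lower. The libraries of these groups did not overlap for 3 of the 4 genes and for 64.5% of all genes tested. Those calls stand 5911 higher against 4512 lower, but 3203 against 6788 where libraries are brought to a common total.

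Tfcp2l1 was well expressed in Astrocytes alone, and fell in MIM-Astrocytes to a trace. This CP2-family factor holds mouse stem cells in the naive state and outside the embryo is known from kidney collecting duct and other epithelial ducts. It read 0.295, 0.218 and 0.357 FPKM in MIM-Astrocytes. It read 0.407, 0.281 and 0.308 FPKM in Glioblastoma and 0.0322, 0.066 and 0.0252 FPKM in NSC, against 29.0, 26.9 and 28.1 FPKM in Astrocytes. Astrocytes stood alone, and MIM-Astrocytes and Glioblastoma overlapped. Tfcp2l1 averaged 0.29 ± 0.0701 FPKM in MIM-Astrocytes and 28 ± 1.05 FPKM in Astrocytes (SD, n = 3 each), a 96.6-fold lower level. In limma it fell by 4.49 on the log2(FPKM + 1) scale (SE 0.0597), and 24 of 16982 genes had a lower value. Tfcp2l1 passed the filter only through Astrocytes, so a fall from that group was set in advance and no p-value is given for it. Among the genes tested, 96.3% had a mean above that of Tfcp2l1 in MIM-Astrocytes and 17.3% in Astrocytes. In tissue or culture RNA fewer cells of a type and less RNA per cell cannot be told apart.

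Tfcp2l1 was also lower in Glioblastoma than in Astrocytes (log2 -4.45) and in NSC than in Astrocytes (log2 -4.80), likewise set in advance. These comparisons share the 3 libraries of Astrocytes. Between the 3 low groups, MIM-Astrocytes and Glioblastoma differed by -0.046 (95% interval -0.18 to 0.087, adjusted p = 0.5093). MIM-Astrocytes were 0.31 above NSC (adjusted p = 0.001392) and Glioblastoma 0.35 above NSC (adjusted p = 0.0003569).

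Some markers of several cell types moved with Tfcp2l1. Among 7 astrocyte markers Gfap and Aqp4 were the 2 called lower in MIM-Astrocytes than in Astrocytes, with means given above. Of the rest, 3 were higher in MIM-Astrocytes and 2 not called, where 34.8% of all genes were higher and 26.6% lower. S100b averaged 25.4 FPKM in MIM-Astrocytes and 5.97 FPKM in Astrocytes, and Gja1 243 and 244 FPKM. In Glioblastoma and NSC Gfap averaged 3.2 and 0.964 FPKM and Aqp4 0.125 and 10.8 FPKM. Meningeal fibroblast markers summed to 19.4 to 22.1 FPKM in MIM-Astrocytes, 0.386 to 0.661 FPKM in Glioblastoma and 1.08 to 1.34 FPKM in NSC, against 280.0 to 328.0 FPKM in Astrocytes. Of the 6 listed genes 2 were above 1 FPKM in MIM-Astrocytes, none in Glioblastoma or NSC and 4 in Astrocytes, with Lum at 0 in MIM-Astrocytes, NSC and Astrocytes and Dcn at 0 in MIM-Astrocytes and NSC. Ogn, Islr and Fmod made up most of the sum in Astrocytes, at means of 164, 92.6 and 43.1 FPKM. Col1a1 averaged 2.69 FPKM there and Dcn 0.0584 FPKM. Ependymal and choroid plexus markers summed to 10.6 to 12.6 FPKM in MIM-Astrocytes, 1.01 to 1.14 FPKM in Glioblastoma and 2.33 to 2.94 FPKM in NSC, against 45.8 to 56.9 FPKM in Astrocytes, with 1, 0, 1 and 2 of 7 genes above 1 FPKM in that order, Ccdc153 at 0 in Glioblastoma and Tmem212 at 0 in Astrocytes. Foxj1 and Folr1 made up most of that sum in Astrocytes, at means of 37.5 and 13.8 FPKM. Ttr averaged 0.135 FPKM in MIM-Astrocytes and 0.154 FPKM in Astrocytes, and Ccdc153 0.427 and 0.504 FPKM. The part of these cell type markers in the Tfcp2l1 level was not tested. Epithelial markers were near 0 in Astrocytes, at 0.00958 to 0.0402 FPKM for 6 genes, with Krt18, Krt5 and Cdh1 at 0.

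Tfcp2l1 spans 118627945 to 118685168 on the plus strand of chromosome 1 (GRCm38). The small nuclear RNA gene Gm23497, of 130 bases, lies on the same strand wholly inside its exon 15 (118677388 to 118685168). It read 4.19, 0.652 and 0 FPKM in MIM-Astrocytes, 0 in all libraries of Glioblastoma and 0, 2.84 and 0 FPKM in NSC, against 118, 69.2 and 137 FPKM in Astrocytes. Both genes were high in the same group, and reads from their shared bases cannot be told apart.

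The start of Tfcp2l1 is shown because no other of the 10 genes differed as much between the astrocyte groups. Capitals mark the TATA box letters TATAAA, 28 bases before the start, found in 13.6% of promoters on either strand. The window is 5′ to 3′ from RefSeq (GRCm38.p6, chr1:118627695-118627994, plus strand).
Tfcp2l1: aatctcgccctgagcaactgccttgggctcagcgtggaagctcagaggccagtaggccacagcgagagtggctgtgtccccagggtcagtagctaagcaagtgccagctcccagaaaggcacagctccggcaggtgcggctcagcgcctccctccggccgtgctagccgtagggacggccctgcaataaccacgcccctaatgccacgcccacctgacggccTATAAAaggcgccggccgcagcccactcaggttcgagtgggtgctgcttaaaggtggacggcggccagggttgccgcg
Of its bases 65.3% are G or C, against a median of 52.7% over all promoters.

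The genes whose levels ran most like Tfcp2l1 over the 12 libraries were Ass1 (r = 0.9987), which makes argininosuccinate, Hgf (0.9984), the hepatocyte growth factor, and Ahnak (0.9981), a very large scaffold protein. Ass1 averaged 0.366 FPKM in MIM-Astrocytes, 0.417 FPKM in Glioblastoma and 0.166 FPKM in NSC, against 33.0 FPKM in Astrocytes. With libraries in 4 tight groups such a correlation mostly restates the group means.

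Klf4, the Krüppel-like factor of the reprogramming set, was at 1.28 to 2.32 FPKM in Glioblastoma and NSC and far lower in both astrocyte groups. It read 0.204, 0.173 and 0.223 FPKM in MIM-Astrocytes. It read 1.63, 1.78 and 1.28 FPKM in Glioblastoma and 2.32, 1.51 and 1.57 FPKM in NSC, against 0.113, 0.204 and 0.107 FPKM in Astrocytes. The astrocyte groups overlapped each other, and so did Glioblastoma and NSC, with a wide gap between the pairs. The mean was 0.2 ± 0.0254 FPKM in MIM-Astrocytes and 0.141 ± 0.0543 FPKM in Astrocytes (SD, n = 3 each), a difference of 0.074 on the log2(FPKM + 1) scale (SE 0.11, 95% interval -0.17 to 0.32, adjusted p = 0.5955, limma). The interval of Klf4 excluded 0 in all 3 libraries of MIM-Astrocytes and in none of Astrocytes.

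Klf4 was higher in Glioblastoma than in Astrocytes by 1.16 and in NSC than in Astrocytes by 1.28. MIM-Astrocytes were below Glioblastoma (log2 -1.09) and below NSC (log2 -1.21). Klf4 passed the filter only through Glioblastoma and NSC, so these differences were set in advance and no p-value is given for them. Glioblastoma and NSC differed by -0.12 (95% interval -0.37 to 0.13, adjusted p = 0.36), and without NSC replicate 1, the highest library, by 0.0096 (adjusted p = 0.9341).

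Klf4 lies on the minus strand of chromosome 4 (55527143 to 55532466). Its start is shown for the E-box CACGTG, the site that Myc and Max bind, and for 4 GC boxes GGGCGG (searched, like every motif here, on both strands, where it reads CCGCCC), of which the foremost pair overlaps by 1 base, all in capitals. The E-box lies 182 bases before the RefSeq start, which is 9 bases from the start in the gene annotation. Of all promoters 7.15% hold that E-box and 35.7% a GC box (GRCm38.p6, chr4:55532426-55532725, minus strand, RefSeq).
Klf4: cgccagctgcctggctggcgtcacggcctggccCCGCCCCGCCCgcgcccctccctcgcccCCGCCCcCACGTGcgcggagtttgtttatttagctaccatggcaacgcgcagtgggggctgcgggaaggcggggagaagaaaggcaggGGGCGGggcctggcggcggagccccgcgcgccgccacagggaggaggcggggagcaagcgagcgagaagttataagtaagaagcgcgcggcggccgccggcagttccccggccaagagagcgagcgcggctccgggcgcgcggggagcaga
Of these bases 74.3% are G or C. The nearest patterns to Klf4 over the 12 libraries were those of Dcx (r = 0.9825), a microtubule protein of migrating neuroblasts, Smarcad1 (0.9777), a chromatin remodeller, and Cntnap4 (0.9775), a neurexin-family cell surface protein. Dcx averaged 0.0893 FPKM in MIM-Astrocytes, 3.4 FPKM in Glioblastoma and 3.57 FPKM in NSC, against 0.0286 FPKM in Astrocytes.

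Myc (chromosome 15, 61985391 to 61990374, plus strand), the basic helix-loop-helix driver of growth and ribosome production, was the only one of the 10 genes above 1 FPKM in every library. It read 3.94, 3.88 and 4.44 FPKM in MIM-Astrocytes. It read 24.9, 23.0 and 22.1 FPKM in Glioblastoma and 6.48, 8.32 and 6.58 FPKM in NSC, against 3.42, 3.48 and 3.44 FPKM in Astrocytes. The order was Glioblastoma, NSC, MIM-Astrocytes and Astrocytes, with no overlap between neighbours. MIM-Astrocytes averaged 4.09 ± 0.305 FPKM and Astrocytes 3.45 ± 0.0328 FPKM (SD, n = 3 each), 1.19-fold higher with MIM. That difference of 0.19 on the log2(FPKM + 1) scale (SE 0.086, 95% interval 0.0001629 to 0.38) did not pass the threshold (adjusted p = 0.077, limma). It came to -0.077 (adjusted p = 0.6036) with a common total.

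Myc was higher in Glioblastoma than in Astrocytes by 2.45 (adjusted p = 1.169e-09), a 6.77-fold higher mean level, and than in NSC by 1.59 (adjusted p = 7.058e-08). NSC were above Astrocytes by 0.86 (adjusted p = 6.726e-06). MIM-Astrocytes were lower than Glioblastoma (log2 -2.26, adjusted p = 5.074e-09) and lower than NSC (log2 -0.67, adjusted p = 8.947e-05). Among all genes tested, 61.9% had a mean above Myc in MIM-Astrocytes, 24.9% in Glioblastoma, 48.9% in NSC and 64.1% in Astrocytes. The genes most like Myc over the 12 libraries were Atp2b1 (r = 0.9983), a plasma membrane calcium pump, Rundc3b (0.9968) and Dact1 (0.9966), a modulator of Wnt signalling.

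Pvt1, the long non-coding RNA gene beside Myc, was looked at after its values had been seen. It averaged 11.7 ± 0.376 FPKM in MIM-Astrocytes, 30.8 ± 1.27 FPKM in Glioblastoma and 12.1 ± 0.923 FPKM in NSC, against 5.76 ± 0.343 FPKM in Astrocytes (SD, n = 3 each). It was higher in MIM-Astrocytes than in Astrocytes by 0.91 (adjusted p = 5.18e-07), while MIM-Astrocytes and NSC differed by -0.039 (adjusted p = 0.624).

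Mycn, the Myc paralogue that neural progenitors use, was near 0 in Astrocytes, slightly higher in MIM-Astrocytes and highest in Glioblastoma. It read 0.163, 0.107 and 0.186 FPKM in MIM-Astrocytes. It read 3.28, 3.13 and 3.26 FPKM in Glioblastoma and 0.782, 0.848 and 0.794 FPKM in NSC, against 0, 0.00939 and 0 FPKM in Astrocytes. No 2 groups overlapped, and the order was that of Myc. Mycn averaged 0.152 ± 0.0404 FPKM in MIM-Astrocytes, 3.23 ± 0.0802 FPKM in Glioblastoma and 0.808 ± 0.0351 FPKM in NSC (SD, n = 3 each). It was listed at 0 in 2 libraries of Astrocytes, so no fold is given. In limma it rose by 0.20 in MIM-Astrocytes over Astrocytes on the log2(FPKM + 1) scale (SE 0.049, adjusted p = 0.004835), a call that quantile normalization ended (0.091, adjusted p = 0.1596).

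Mycn was higher in Glioblastoma than in Astrocytes by 2.08 and than in NSC by 1.23. MIM-Astrocytes were lower than Glioblastoma (log2 -1.88), with a 21.2-fold lower mean. Mycn passed the filter only through Glioblastoma, so a rise there was set in advance and no p-value is given for it. In limma NSC were above Astrocytes by 0.85 (adjusted p = 8.201e-08). MIM-Astrocytes were lower than NSC in Mycn (log2 -0.65, adjusted p = 1.819e-06), with a 5.32-fold lower mean. Its levels and those of Myc correlated at r = 0.996 over the 12 libraries, which lie in 4 tight groups. B3galnt1 (r = 0.9989), a glycosyltransferase of globosides, Gnb4 (0.9979), a G protein beta subunit, and Rbm25 (0.9978), a splicing regulator, had the nearest patterns.

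Cycling cell markers also differed between the groups. Their summed level was 499 to 536 FPKM in MIM-Astrocytes, 440 to 467 FPKM in Glioblastoma and 153 to 180 FPKM in NSC, against 23.4 to 29.1 FPKM in Astrocytes. All 6 listed genes were above 1 FPKM in the first 3 groups and 3 of 6 in Astrocytes, with none at 0. MIM-Astrocytes had the highest cycling sum and the second lowest level of Myc and Mycn. The part of cycling in either level was not tested.

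Mycn lies on the minus strand of chromosome 12 (12936093 to 12941914). Its start holds a pair of E2F-type motifs TTTGGCGC, a site class read by the cell cycle factors of the E2F family, and 2 GC boxes, all in capitals. The E2F-type motifs begin 183 and 168 bases before the RefSeq start, which is 78 bases from the start in the gene annotation, and both are on the strand shown (GRCm38.p6, chr12:12941787-12942086, minus strand, RefSeq).
Mycn: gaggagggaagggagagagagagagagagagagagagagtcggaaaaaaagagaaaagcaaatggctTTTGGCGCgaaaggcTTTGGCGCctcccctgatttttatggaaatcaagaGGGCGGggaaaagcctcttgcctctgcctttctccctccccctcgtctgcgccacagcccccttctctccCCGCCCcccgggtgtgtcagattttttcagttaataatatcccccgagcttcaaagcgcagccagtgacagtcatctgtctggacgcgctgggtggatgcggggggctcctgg
The E2F-type letters occur in 0.514% of promoters. Of the 10 genes 9 had an entry in the promoter table, Myc being the exception.

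**Figure D2:**
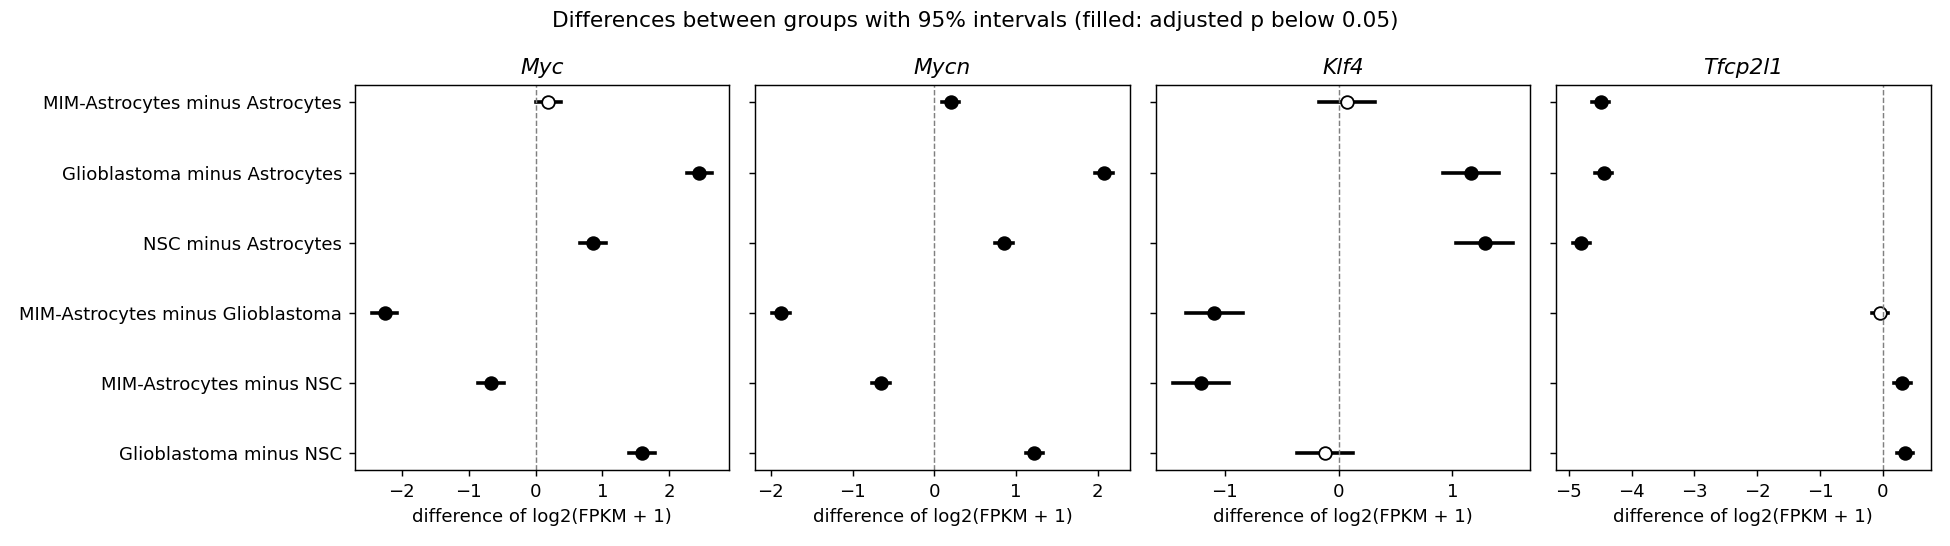
Differences of log2(FPKM + 1) (horizontal axes) for Myc, Mycn, Klf4 and Tfcp2l1 in the 6 comparisons (vertical axis), with 95% intervals. Filled points have an adjusted p below 0.05 in limma. Myc and Klf4 are open in MIM-Astrocytes minus Astrocytes, where Mycn is at 0.20 and Tfcp2l1 at -4.49.

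Taking the remaining comparisons as counts, 3 of the 4 genes were higher and 1 lower in Glioblastoma than in Astrocytes, where 78.3% of all genes tested were called (47.0% higher, 31.3% lower). The groups did not overlap for any of the 4, nor for 79.9% of all genes tested. Klf4, Mycn and Tfcp2l1 passed the filter through their high groups, so calls and gaps between those and the low groups were set in advance. In NSC against Astrocytes 3 were higher and 1 lower as well, where 71.2% were called (37.7% higher, 33.4% lower), and none of the 4 overlapped, as for 73.0% of all. In MIM-Astrocytes against Glioblastoma 3 were lower and none higher, where 69.8% were called (28.3% higher, 41.5% lower), and 3 of the 4 did not overlap, as for 74.5% of all. In MIM-Astrocytes against NSC 3 were lower and 1 higher, where 55.9% were called (24.9% lower, 31.0% higher), and none of the 4 overlapped, as for 62.3% of all. In Glioblastoma against NSC 3 were higher, where 69.9% were called (44.8% higher, 25.1% lower), and 3 of the 4 did not overlap, as for 75.0% of all. With no filter on low values all 10 genes entered. Then 4 were called in MIM-Astrocytes against Astrocytes, where 34.5% of all genes were, 7 in Glioblastoma against Astrocytes (49.3% of all) and 5 in NSC against Astrocytes (42.7% of all). In MIM-Astrocytes against Glioblastoma 5 were called (41.1% of all), in MIM-Astrocytes against NSC 4 (29.1% of all) and in Glioblastoma against NSC 5 (42.4% of all). The balance of all genes shifted with scaling: Glioblastoma against Astrocytes had 7983 higher and 5311 lower, but 6475 and 6673 with median-of-ratios scaling and 4673 and 7992 with a common total. NSC against Astrocytes had 6407 and 5680, but 3784 and 7852 with a common total. MIM-Astrocytes against Glioblastoma had 4802 and 7045, but 6045 and 4833 with a common total. Glioblastoma against NSC had 7611 and 4265, but 6062 and 5697, 5640 and 5038, and 6112 and 5486 with median-of-ratios, common-total and quantile scaling.

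Lin28a was near 0 everywhere and Lin28b had a trace in Glioblastoma. Lin28a (chromosome 4, 134003330 to 134018841, minus strand), which is found in embryonic stem cells and early neuroepithelium, read 0.00992, 0 and 0.0252 FPKM in MIM-Astrocytes. It read 0, 0 and 0.00567 FPKM in Glioblastoma and 0, 0.00553 and 0.0849 FPKM in NSC, against 0, 0 and 0.00522 FPKM in Astrocytes. Its interval reached 0 in every library, and the two-sided exact permutation test of MIM-Astrocytes against Astrocytes gave p = 0.4. Lin28b (chromosome 10, 45376620 to 45486395, minus strand), the paralogue often found in tumours, read 0, 0 and 0.00267 FPKM in MIM-Astrocytes and 0.0763, 0.0708 and 0.0945 FPKM in Glioblastoma. It read 0.0033, 0 and 0.00627 FPKM in NSC and was listed at 0 in all 3 libraries of Astrocytes. The 3 libraries of Glioblastoma stood above the other 9 and were the only ones whose interval excluded 0. With no filter, limma called Lin28b higher in Glioblastoma than in Astrocytes by 0.11 (adjusted p = 7.808e-07).

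The small RNAs that Lin28 proteins block share one seed, bases 2 to 8, in all 10 let-7 5p entries of the RefSeq table (8 names), and 2 of them are shown with the seed in capitals.
let-7a-5p: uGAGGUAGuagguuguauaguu
let-7d-5p: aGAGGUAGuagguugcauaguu
These libraries do not measure mature let-7: of 11 let-7 hairpin genes listed, 10 were at 0 in all 12 libraries.

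Genes of the Lin28 and let-7 pathway were counted beside them. Of 20 listed names 18 matched a gene, and 16 of those were tested. The names without a match, Tut4 and Tut7, stand for Zcchc11 and Zcchc6, which are also listed. In MIM-Astrocytes against Astrocytes 6 were higher, 3 lower and 7 not called, where 34.8% of all genes were higher and 26.6% lower. The median difference of the 16 was 0.10 where all genes had 0.09. With a common total 3 were higher and 4 lower, and the median turned to -0.07. Hmga1, a chromatin protein, rose by 0.81 (adjusted p = 0.00038) and Dgcr8, of the microprocessor, by 0.71 (adjusted p = 9.69e-07). Msi1, an RNA-binding protein of neural progenitors, fell by 1.03 (adjusted p = 2.01e-06), and the uridylyltransferase Zcchc6 (Tut7) fell by 0.46 (adjusted p = 0.000205). In NSC against Astrocytes 11 were higher, 3 lower and 2 not called (median 0.36, all genes 0.07). In Glioblastoma against Astrocytes 13 were higher and 3 lower (median 0.75, all genes 0.23). Hmga2, Trim71 and Arid3b passed the filter only through Glioblastoma, and Igf2bp2 only through Glioblastoma and NSC. Their rises over Astrocytes in those groups were set in advance, yet they are in these counts and medians. Of all genes tested, 37.7% were higher and 33.4% lower in NSC, and 47.0% and 31.3% in Glioblastoma. The counts of the 16 with a common total were 7 higher and 3 lower in NSC (median 0.11) and 8 higher and 4 lower in Glioblastoma (median 0.26).

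Some classical let-7 targets are described here after their values were seen, and they did not share a single pattern. Hmga2, a chromatin protein of fetal stem cells, averaged 0.0395 ± 0.00131 FPKM in MIM-Astrocytes, 7.12 ± 0.166 FPKM in Glioblastoma and 0.301 ± 0.0301 FPKM in NSC, against 0.0265 ± 0.00262 FPKM in Astrocytes (SD, n = 3 each). It was 2.64 higher in Glioblastoma than in NSC on the log2(FPKM + 1) scale. Trim71 (Lin41) averaged 0.00382 FPKM in MIM-Astrocytes, 1.52 FPKM in Glioblastoma and 0.0507 FPKM in NSC, against 0.0032 FPKM in Astrocytes, and was 1.26 higher in Glioblastoma than in NSC. Hmga2 and Trim71 passed the filter only through Glioblastoma, so a rise there was set in advance and no p-value is given for it. Igf2bp2, a messenger RNA binder, averaged 0.657 FPKM in MIM-Astrocytes, 10.8 FPKM in Glioblastoma and 1.94 FPKM in NSC, against 0.82 FPKM in Astrocytes. Its relative Igf2bp3 was highest in NSC, at 16.3 ± 0.532 FPKM, against 6.2 ± 0.778 FPKM in Glioblastoma. Igf2bp1, which did not pass the filter, averaged 0 FPKM in MIM-Astrocytes, 0.0231 FPKM in Glioblastoma and 0.0138 FPKM in NSC, against 0.0498 FPKM in Astrocytes. None of Hmga2, Trim71, Igf2bp2 and Igf2bp3 was called in MIM-Astrocytes against Astrocytes (adjusted p = 0.753, 0.99, 0.302 and 0.386).

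**Figure D3:**
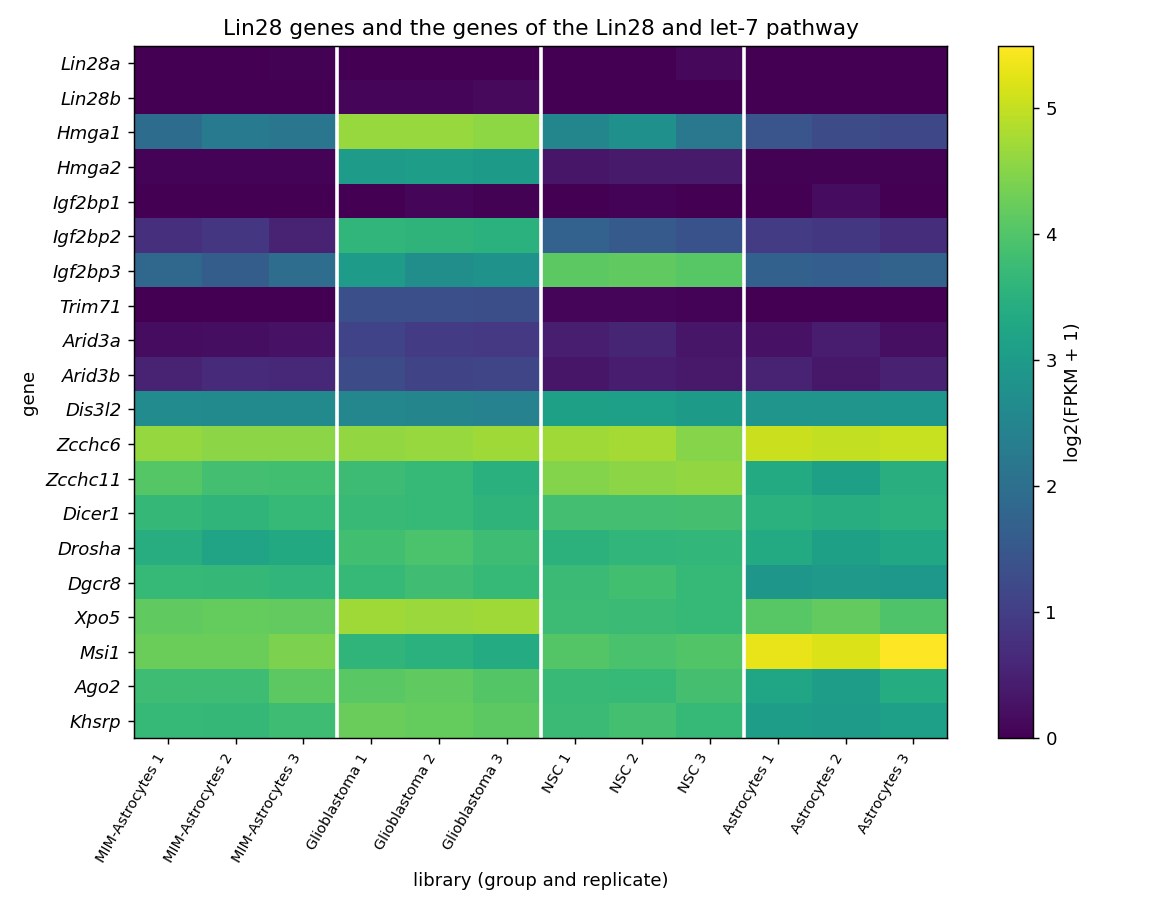
Level as log2(FPKM + 1) (colour scale) of Lin28a, Lin28b and the genes of the Lin28 and let-7 pathway (rows) in the 12 libraries (columns, in groups of 3). Hmga2, Igf2bp2 and Trim71 are brightest in Glioblastoma and Igf2bp3 in NSC.

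A level for background was taken from 26 genes of unrelated tissues, such as liver, pancreas, heart, muscle, retina and testis genes. Their 95th percentile was 0.187 to 0.246 FPKM in MIM-Astrocytes, 0.265 to 0.296 FPKM in Glioblastoma, 0.244 to 0.333 FPKM in NSC and 0.295 to 0.333 FPKM in Astrocytes. A gene counted as above background where each of its 3 libraries exceeded that percentile in the same library. In MIM-Astrocytes 2 of 10 did, Myc and Tfcp2l1. In Glioblastoma 5 did (Klf2, Klf4, Myc, Mycn and Tfcp2l1), in NSC 3 (Klf4, Myc and Mycn) and in Astrocytes 4 (Nanog, Klf2, Myc and Tfcp2l1). No gene was above background in MIM-Astrocytes and not in Astrocytes. Klf4 exceeded the percentile in 1 of 3 libraries of MIM-Astrocytes and Mycn in none. The heart myosin gene Myh6 was the highest of the 26 in MIM-Astrocytes, at 1.12 to 1.32 FPKM, and with the highest gene as the mark only Myc passed there. Where the median of the 26 and an interval above 0 sufficed, 6 of 10 passed in MIM-Astrocytes and 4 of 10 in Astrocytes, with Klf4 and Mycn the added ones.

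**Figure D4:**
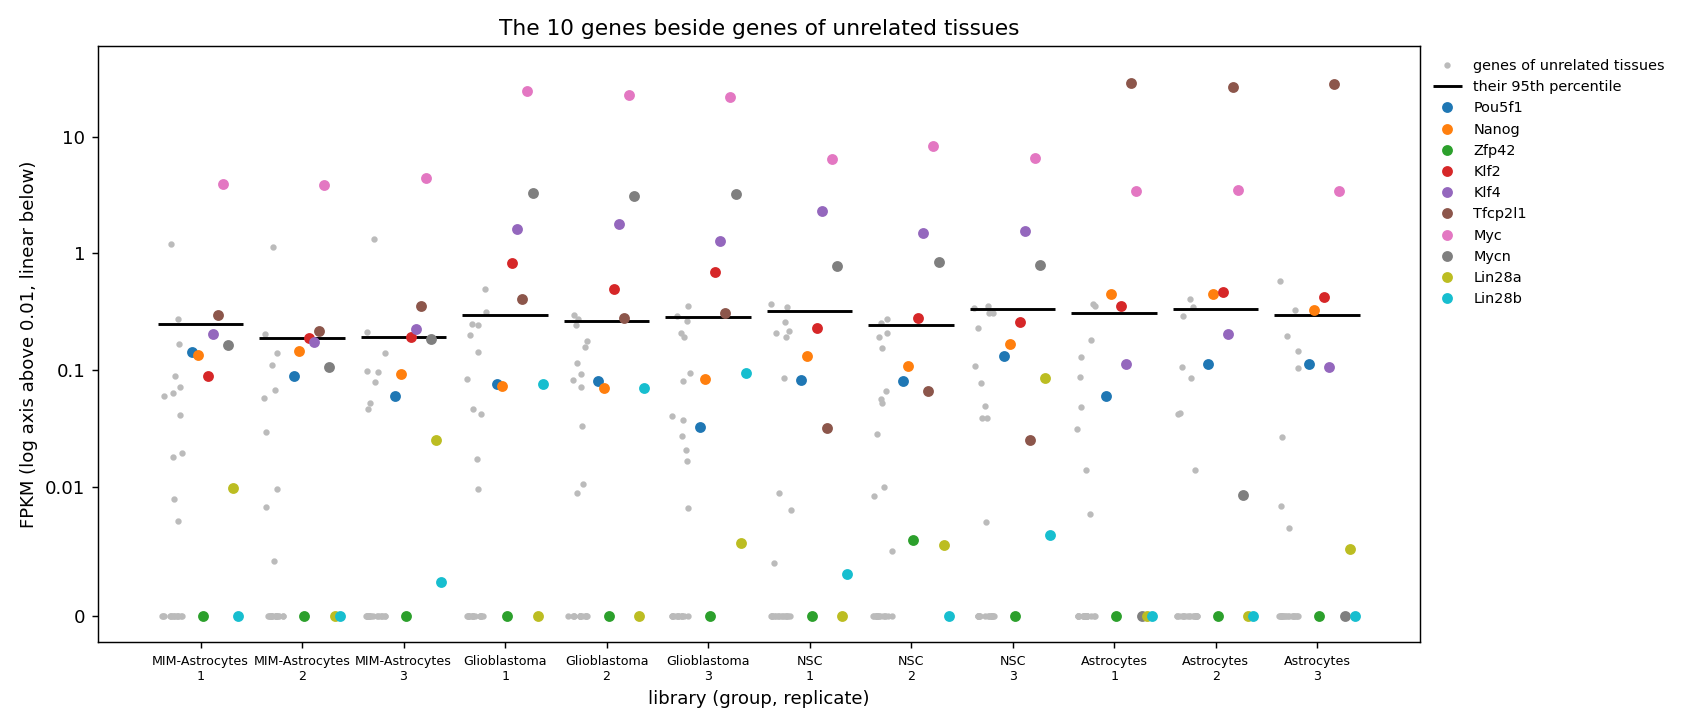
FPKM (vertical axis, logarithmic above 0.01 and linear below) of the 10 genes (coloured) and of 26 genes of unrelated tissues (grey) in each library (horizontal axis). Black lines are the 95th percentile of the 26. In MIM-Astrocytes Myc and Tfcp2l1 lie above the line in all 3 libraries.

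Of 28 other genes of the pluripotency network 6 were tested. In MIM-Astrocytes against Astrocytes 2 were higher, 2 lower and 2 not called (median 0.06, all genes 0.09), where 34.8% of all genes were higher and 26.6% lower. With a common total none of the 6 was higher. Sox2, shared by stem cells and neural cells, stood at 89.1 ± 3.87 FPKM in MIM-Astrocytes and 61.0 ± 7.07 FPKM in Astrocytes (SD, n = 3 each), and rose by 0.54 (adjusted p = 0.000464, but 0.0716 with a common total). Esrrb, the orphan nuclear receptor of the naive state, stood at 0.166 ± 0.0325 FPKM in MIM-Astrocytes and 0.0458 ± 0.0405 FPKM in Astrocytes, a difference of 0.16 (adjusted p = 0.0371) that was not called with a common total (0.0891) or quantile normalization (0.543). Tdgf1 (Cripto), a Nodal co-receptor, fell by 1.50, to 0.108 ± 0.0678 FPKM in MIM-Astrocytes, against 2.14 ± 0.294 FPKM in Astrocytes. It passed the filter only through Astrocytes, so a difference was set in advance and no p-value is given. In NSC against Astrocytes 1 of the 6 was higher and 3 lower, where 37.7% of all genes were higher and 33.4% lower. Tdgf1 is among the 3, and its fall there was also set in advance.

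Among the other Krüppel-like factors 11 of 15 were tested, with 4 higher, 5 lower and 2 not called in MIM-Astrocytes against Astrocytes (median -0.02). Of all genes tested, 34.8% were higher in that comparison and 26.6% lower. Klf12 rose by 1.63 (adjusted p = 7.63e-08) and Klf7, a factor of neuron outgrowth, by 1.31 (adjusted p = 1.39e-07). Klf6 fell by 1.29 (adjusted p = 7.54e-08) and Klf13 fell by 0.61 (adjusted p = 0.000393). In NSC against Astrocytes 7 of the 11 were higher and 3 lower (median 0.63), and 6 and 4 with a common total (median 0.26). Without that scaling 37.7% of all genes were higher and 33.4% lower. Klf10, an early TGF-beta response gene named after its values were seen, was low and high in the same groups as Klf4: it averaged 2.03 ± 0.333 FPKM in MIM-Astrocytes, 30.0 ± 1.77 FPKM in Glioblastoma and 29.6 ± 1.74 FPKM in NSC, against 2.84 ± 0.331 FPKM in Astrocytes (SD, n = 3 each).

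Of 17 tested partners, antagonists and turnover factors of Myc 9 were higher, 3 lower and 5 not called in MIM-Astrocytes against Astrocytes (median 0.22, all genes 0.09). Over all genes 34.8% were higher and 26.6% lower. With a common total 5 of the 17 were higher, 6 lower and 6 not called, and their median turned to -0.11. Aurka, the mitotic kinase that stabilizes Mycn protein, rose by 4.01 (adjusted p = 4.5e-10), to 21 ± 1.02 FPKM in MIM-Astrocytes, against 0.368 ± 0.144 FPKM in Astrocytes (SD, n = 3 each). Mxd3, a Max partner of dividing cells, rose by 3.66 (adjusted p = 5.33e-10). Max, the shared dimer partner, fell by 0.85 (adjusted p = 1.25e-06), to 17.9 ± 0.736 FPKM in MIM-Astrocytes, against 33.1 ± 2.61 FPKM in Astrocytes, and the glucose sensor Mlxip fell by 0.71 (adjusted p = 0.00116). Mycl, the third Myc gene, named after its values were seen, averaged 6.82 ± 0.631 FPKM in MIM-Astrocytes, 3.32 ± 0.246 FPKM in Glioblastoma and 14.5 ± 1.11 FPKM in NSC, against 2.18 ± 0.352 FPKM in Astrocytes. It was 1.30 higher in MIM-Astrocytes than in Astrocytes (adjusted p = 7.15e-07). In NSC against Astrocytes 9 of the 17 were higher and 2 lower (median 0.20), where 37.7% of all genes were higher and 33.4% lower. With a common total 7 were higher and 6 lower, and the median turned to -0.04.

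Genes known as Myc targets serve mostly ribosome production and growth. Of 30 tested, 25 were higher in MIM-Astrocytes than in Astrocytes, 2 lower and 3 not called (median 0.53, all genes 0.09). Myc itself was not called there, and 34.8% of all genes were higher and 26.6% lower. The counts of the 30 were 22, 2 and 6 with median-of-ratios scaling and 13, 4 and 13 with a common total (median 0.23). Rcc1, which loads Ran, rose by 1.77 (adjusted p = 4.05e-08) and Cdk4, the G1 kinase, by 1.62 (adjusted p = 1.58e-07). Odc1, the first enzyme of polyamine synthesis, fell by 0.32 (adjusted p = 0.00735), and the glycolytic enzyme Ldha fell by 0.24 (adjusted p = 0.0426). The targets stood lower in MIM-Astrocytes than in Glioblastoma, with 25 of 30 lower (median -0.91), where 41.5% of all genes were. They were split against NSC, with 10 higher, 10 lower and 10 not called, where 31.0% of all were higher and 24.9% lower. In Glioblastoma against Astrocytes 27 of the 30 were higher (median 1.55), where 47.0% of all were. In NSC against Astrocytes 17 were higher, 3 lower and 10 not called (median 0.54), where 37.7% of all were higher and 33.4% lower. With a common total the target counts were 26 higher (median 0.95) in Glioblastoma, and 14 higher and 6 lower (median 0.18) in NSC. All 6 cycling cell markers were higher as well in MIM-Astrocytes, Glioblastoma and NSC against Astrocytes. In MIM-Astrocytes against Glioblastoma 5 of 6 markers were higher and 1 lower, where 28.3% of all genes were higher. In MIM-Astrocytes against NSC 6 of 6 were higher. In Glioblastoma against NSC 5 of 6 markers and 26 of 30 targets were higher, where 44.8% of all genes were. The part of the cycling markers in the target levels was not tested.

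Of the 4 tested relatives of Tfcp2l1, the CP2 and grainyhead genes, 1 was lower and 1 higher in MIM-Astrocytes than in Astrocytes. Over all genes 26.6% were lower and 34.8% higher. Tfcp2 fell by 0.74 (adjusted p = 0.00135), to 8.38 ± 0.994 FPKM in MIM-Astrocytes, against 14.8 ± 3.08 FPKM in Astrocytes (SD, n = 3 each). Grhl2, an epithelial factor, rose by 0.54 (adjusted p = 2.72e-05), to 0.517 ± 0.0657 FPKM in MIM-Astrocytes, against 0.0421 ± 0.0201 FPKM in Astrocytes. A common total gave 1 higher and 2 lower. In NSC against Astrocytes 1 was higher and 1 lower, but 1 and 3 with a common total. Without that scaling 37.7% of all genes were higher there and 33.4% lower.

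**Figure D5:**
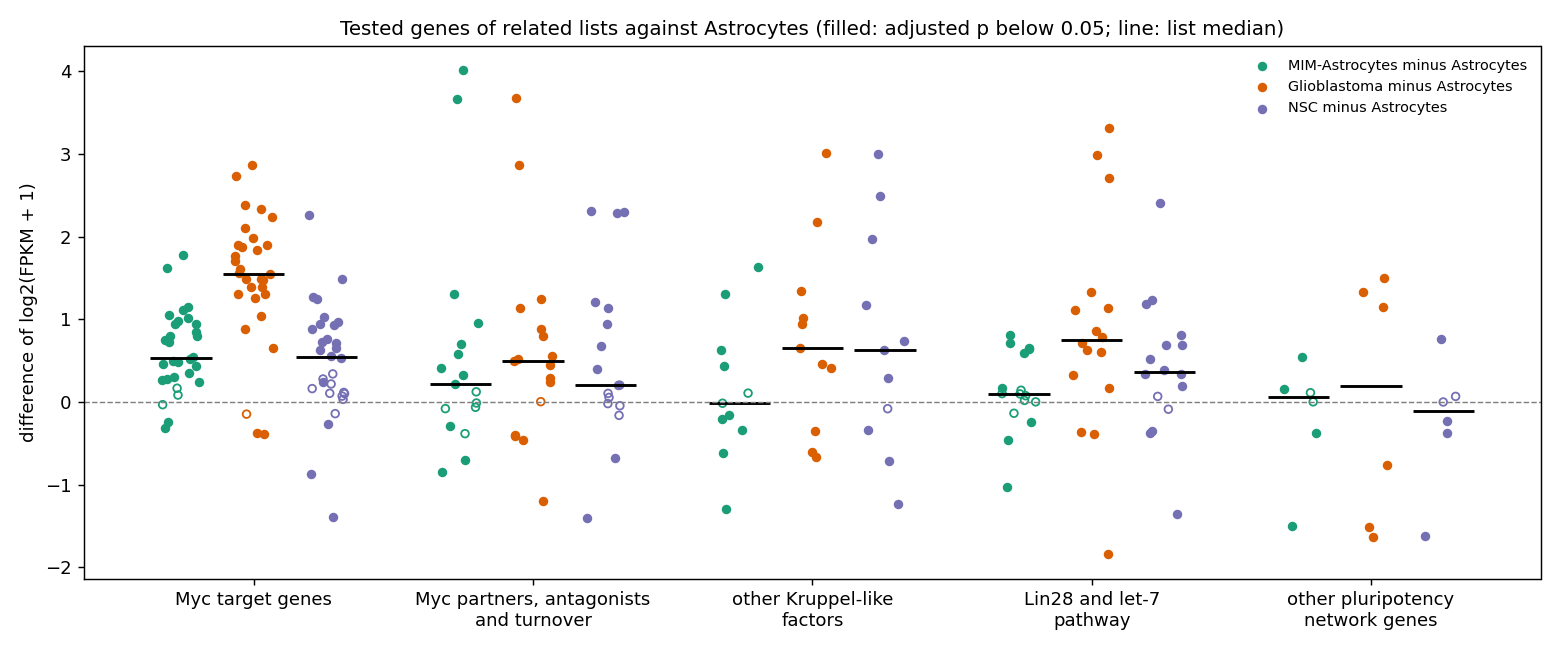
Differences of log2(FPKM + 1) from Astrocytes (vertical axis) for the tested genes of 5 related lists (horizontal axis) in MIM-Astrocytes, Glioblastoma and NSC. Filled points have an adjusted p below 0.05 and lines are list medians. Myc target genes have medians of 0.53, 1.55 and 0.54 in that order.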

How the data were processed

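RNA of 12 libraries in 4 groups of 3 was analysed. The authors deposited FPKM values, a table for each library in which every value has an interval and a status, computed with Cufflinks on GRCm38 per the submitters' processing notes. The aligner and the strandedness are not given in the sources used here, and depth is known only through the intervals. Each table had 53989 lines for 53932 identifiers; the 45 on more than 1 line were summed, and 99.9% were found in GENCODE M21.

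Genes at 1 FPKM or more in at least 3 libraries with status OK in all 12 (16982) were fitted as log2(FPKM + 1) with limma 3.58.1 (R 4.3.3), 1 mean per group and a variance trend, adjusted by Benjamini and Hochberg, called below 0.05. The fit was tested on simulated data. Since the pseudocount is 1, differences understate changes of low genes. Genes under the filter got an exact permutation test, MIM-Astrocytes against Astrocytes. Promoters and let-7 came from RefSeq tables. Python 3.11.15, pandas 2.3.3, NumPy 2.4.6, SciPy 1.17.1 and matplotlib 3.10.9 were used.

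The 10 genes and all lists were chosen with earlier results of these data known. Besides the 10, the text names the 2 largest rises and 2 largest falls called in MIM-Astrocytes against Astrocytes from each related list, and for each tested gene the 3 protein-coding genes with the highest Pearson r over 12 libraries. Genes outside that rule are said to be so. Alternatives were pseudocounts, filters, scalings, a replicate block, fewer libraries and other marks of background. A gene of the pluripotency list is included in that list's counts and median but its own values are not reported here.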

Additional observations from a re-analysis of the deposited data

How the results depend on the processing

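With no filter on low values (37662 genes), 4 of the 10 genes were called in MIM-Astrocytes against Astrocytes in place of 2 (34.5% of all genes), 7 in Glioblastoma against Astrocytes in place of 4 (49.3%), 5 in NSC against Astrocytes in place of 4 (42.7%), 5 in MIM-Astrocytes against Glioblastoma in place of 3 (41.1%) and 5 in Glioblastoma against NSC in place of 3 (42.4%), since Nanog, Klf2 and Lin28b then enter. A mean of at least 5 FPKM leaves fewer genes to test: 1, 2, 2, 1 and 2 of the 10 were called in MIM-Astrocytes, Glioblastoma and NSC against Astrocytes and in MIM-Astrocytes against Glioblastoma and NSC, and 6807, 8446, 7745, 7665 and 7681 of all genes in those against Astrocytes, MIM-Astrocytes against Glioblastoma and Glioblastoma against NSC. Quantile normalization left 1 called in MIM-Astrocytes against Astrocytes, turned Klf4 there to -0.081 (adjusted p = 0.5605) and called Tfcp2l1 in MIM-Astrocytes against Glioblastoma (-0.22, adjusted p = 0.02167). A common total turned Myc to -0.077 in MIM-Astrocytes against Astrocytes and Tfcp2l1 to 0.018 in MIM-Astrocytes against Glioblastoma (adjusted p = 0.8722). A fit of only the 6 libraries called Myc there (0.19, adjusted p = 0.04937). The cause was not tested for the scalings. Genes above background were 1, 6 and 1 in MIM-Astrocytes with the highest gene, the median or 1 FPKM as the mark, 3 in Glioblastoma with 1 FPKM, 5 in NSC with the median, and 2 in Astrocytes with the highest gene or 1 FPKM.

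Leaving out 1 library changed no count of the 10 genes called, and all genes called in MIM-Astrocytes against Astrocytes ranged from 9645 to 10174. Klf4 in Glioblastoma against NSC ranged from -0.19 to 0.0096. Replicate numbers are not said to pair libraries, and deviations of same-numbered libraries correlated at -0.058 to 0.097, against -0.121 to 0.0736 for others. With a replicate block 10454 genes were called in MIM-Astrocytes against Astrocytes in place of 10423, and no call among the 10 genes changed. Scaling moved the median of all genes by -0.26 (MIM-Astrocytes), -0.49 (Glioblastoma) and -0.31 (NSC) against Astrocytes with a common total.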

Other observations

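Some naive-state genes outside the 10, picked after their values were seen, had higher mean levels in Glioblastoma than in NSC. Esrrb averaged 1.96 ± 0.144 FPKM in Glioblastoma and 0.0447 ± 0.0197 FPKM in NSC (SD, n = 3 each), 1.50 higher on the log2(FPKM + 1) scale. It passed the filter only through Glioblastoma, so a difference was set in advance and no p-value is given. Nr5a2, a nuclear receptor that can stand in for Pou5f1 in reprogramming, averaged 1.14 ± 0.172 FPKM in Glioblastoma and 0.181 ± 0.0827 FPKM in NSC, and Tbx3, a T-box factor of the naive state, 0.384 ± 0.123 FPKM in Glioblastoma and 0.00369 ± 0.00375 FPKM in NSC. Neither was tested, since both stood under the filter. Pou5f1, Nanog and Zfp42 stood under background in that culture.

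Npm1 and Nop56, nucleolar genes of the Myc target list that were picked after their values were seen, averaged 349 ± 28.9 and 115 ± 7.65 FPKM in Glioblastoma and 147 ± 9.65 and 37.0 ± 1.81 FPKM in NSC (SD, n = 3 each).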
